A study of Mus musculus with 4 samples.

Results

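Id1, Id2 and Id3 and Smad1 to Smad7 were followed in germinal vesicle (GV) oocytes with a non-surrounded nucleolus (NSN) or a surrounded nucleolus (SN). These 10 genes were taken by their symbols from the 16861 genes listed in each library, of which 9 are present. Smad7 is not among the listed genes and was not analysed here. GV oocytes are arrested in the first meiotic prophase, with the nucleus still intact. The names refer to whether condensed chromatin encircles the nucleolus (SN) or not (NSN). The oocytes came from antral follicles of 3-week-old female C57BL/6J mice, and no allele or treatment set the groups apart. They were stripped of cumulus cells by pipetting and sorted by Hoechst staining in medium with milrinone, an inhibitor that keeps them arrested. Each library was made by Smart-seq2 from a pool of 15 oocytes, and 2 NSN and 2 SN libraries were analysed. The labels do not say whether the replicates came from separate mice, so the spread between them may be technical.

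Bone morphogenetic proteins (BMPs) and other ligands of the TGF-beta family bind pairs of type I and type II receptor kinases at the cell surface. The type I receptor phosphorylates receptor-regulated Smads, which join the common mediator Smad4 and enter the nucleus. Smad1, Smad5 and Smad9 serve BMP receptors, Smad2 and Smad3 serve activin and TGF-beta receptors, and Smad6 and Smad7 are inhibitory Smads. Id genes are classical BMP targets, and their proteins bind basic helix-loop-helix (bHLH) transcription factors and keep them from DNA. The oocyte secretes Gdf9 and Bmp15, ligands of this family that act on the surrounding granulosa cells.

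The values are FPKM, that is read pairs scaled to the length of the gene and the size of the library, so levels can be compared between genes. Totals of 17069772 to 17998361 read pairs per library and the read pairs behind each value were recovered from the FPKM. SN and NSN were compared with limma on log2(FPKM + 0.5) for 11672 genes whose mean FPKM reached 0.5. On this scale the changes of low genes come out too small. A gene was called at a Benjamini-Hochberg adjusted p under 0.05 over all genes tested together with a change of 1.2-fold or more. The 10 genes were selected on the difference between SN and NSN FPKM in these same libraries, since Id3 is among the largest falls. Their fold changes and p-values are therefore a description of these libraries and not a test of the family. For any 1 gene, the smallest two-sided p that exact permutation allows with 2 libraries a group is 0.333. All 13 oocyte markers were listed, and in all 13 both SN libraries were below both NSN libraries (17.8% of all genes tested). Of 18 granulosa and cumulus cell markers, 11 were listed, and their summed level was 34.7 and 40.6 FPKM in NSN and 44.7 and 43.6 FPKM in SN libraries. Most of this sum was the gene Esr2, with 25.0 and 26.6 FPKM in NSN and 30.5 and 29.6 FPKM in SN libraries. Fewer transcripts per oocyte and a smaller share of the library cannot be told apart in FPKM. The cDNA was primed with oligo(dT), so the values stand mainly for RNA with poly(A) tails. The length of the tails was not measured, and its part in the levels was not tested.

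Id3 was by far the most abundant of the Id transcripts and fell in SN oocytes, while Smad4, the common mediator, rose. Smad2 and Smad3 were several times more abundant than the BMP Smads, Smad1 and Smad5, in both configurations. Id1 and Id2 were low, and Smad6 was at the limit of detection. Of the 9 listed genes, 7 passed the filter on low values, and 2 of these 7 were called, against a background of 7.93% of all genes tested. The median log2 fold change was 0.19 over the 7 genes and 0.14 over all 11672. In 6 of the 7 genes both SN libraries lay on one side of both NSN libraries, which was the case for 62.6% of all genes tested. They were above in 4 genes (44.8% of all genes) and below in 2 genes (17.8% of all genes).

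**Figure D1:**
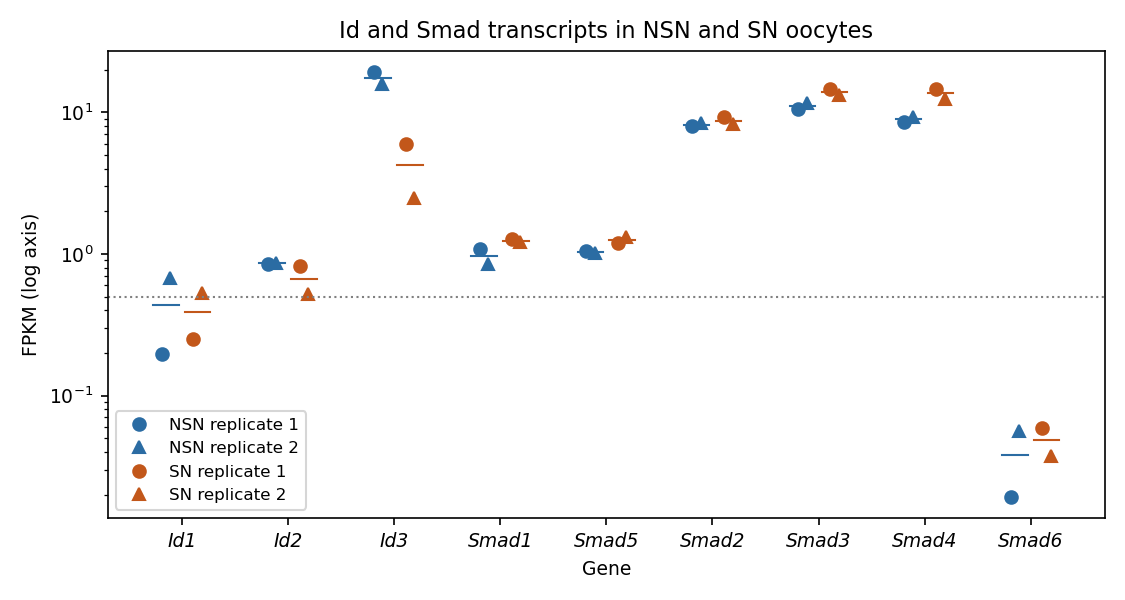
FPKM (log axis) of the 9 listed Id and Smad genes in each of the 4 libraries, with circles for replicate 1, triangles for replicate 2, short bars for the mean of each group and a dotted line at the filter of 0.5. Id3 is the only gene shown whose SN libraries lie far below its NSN libraries, and Smad4 lies higher in both SN libraries.

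The Id proteins have a helix-loop-helix domain but no region that binds DNA, so they act by sequestering their partners. Id3 (ENSMUSG00000007872.5, chromosome 4 of GRCm39 from 135870808 to 135873066) had 19.3 and 15.8 FPKM in NSN replicates 1 and 2, and 5.96 and 2.48 FPKM in SN replicates 1 and 2. Both SN libraries were below both NSN libraries, and the SN replicates also differed from each other. These levels rest on 429, 362, 130 and 57 read pairs in that order. The mean level was 4.16-fold lower in SN oocytes, from 17.5 ± 2.45 to 4.22 ± 2.46 FPKM (SD, n = 2). On the log2 scale this was a change of -2.03 with a standard error of 0.33 (limma adjusted p = 0.036). Of the 11672 genes tested, 1 had a lower log2 fold change than Id3. Without NSN replicate 1 the log2 fold change was -1.90 (limma adjusted p = 0.072), and without SN replicate 2 it was -1.48 (limma adjusted p = 0.052), so neither kept the call, although the direction held. In these fits the lone library of a group is assumed to vary like the other group. The exons of Id3 share 11.8% of their bases with another annotated gene, and reads were counted without strand.

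Id2 (ENSMUSG00000020644.11, chromosome 12 from 25143798 to 25147282) had 0.848 and 0.870 FPKM in NSN and 0.817 and 0.524 FPKM in SN libraries. SN replicate 1 was close to the NSN libraries and SN replicate 2 was lower. The log2 fold change of -0.23 did not pass the threshold (limma adjusted p = 0.46), with a 95% interval from -0.70 to 0.25. Its values rest on 36, 38, 34 and 23 read pairs, and 36.2% of its exonic bases lie in other annotated genes. Id1 (ENSMUSG00000042745.11, chromosome 2 from 152566218 to 152579544) had 0.198 and 0.674 FPKM in NSN and 0.253 and 0.527 FPKM in SN libraries. The groups overlapped, and replicates of 1 group differed more than the groups did. Its 4 read pairs in NSN replicate 1 have an exact Poisson 95% interval of 1.09 to 10.2, and its 14 in NSN replicate 2 one of 7.65 to 23.5. The mean of Id1 over the 4 libraries, 0.413 FPKM, was below the filter, so it was not tested, and a difference could not be judged from so few read pairs. These intervals reflect counting alone, because read pairs amplified by PCR are not separate molecules.

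The composition of the Id transcripts can be read within a library, where the library total cancels. Of the summed Id1, Id2 and Id3 FPKM, Id3 made up 94.9% and 91.1% in NSN oocytes, but 84.8% and 70.2% in SN oocytes. Id3 thus remained the main Id transcript in all 4 libraries, and its lower share in SN oocytes restates its fall. The summed FPKM of the 3 Id genes was 20.3 and 17.4 in NSN libraries, and 7.03 and 3.53 in SN libraries. Id4, the remaining gene of the family, is not among the listed genes.

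Id2, Id3 and Smad6 are themselves known targets of BMP signalling, so their promoters are given here. Each runs from 250 bases before to 50 bases after the start of the gene in RefSeq (GRCm38.p6 models, with 6 of the 10 genes in the table), 5′ to 3′ along the gene, and was placed on GRCm39 by an exact match. Capitals mark letters to which Smads are known to bind, GGCGCC (found in BMP-responsive elements), CAGAC or its reverse complement GTCTG, and the palindrome GTCTAGAC. The Id2 window is chr12:25146042-25146341 (minus strand), the Id3 window is chr4:135870883-135871182 (plus strand) and the Smad6 window is chr9:63929292-63929591 (minus strand). Each window lies inside the annotated span printed for its gene, which begins further upstream than the RefSeq start used here.
Id2: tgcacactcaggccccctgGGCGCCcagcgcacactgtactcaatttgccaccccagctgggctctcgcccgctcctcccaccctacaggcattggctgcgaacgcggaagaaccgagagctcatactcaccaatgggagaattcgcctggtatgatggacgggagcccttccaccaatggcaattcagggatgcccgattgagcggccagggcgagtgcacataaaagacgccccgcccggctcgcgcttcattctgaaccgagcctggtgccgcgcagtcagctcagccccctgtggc
Id3: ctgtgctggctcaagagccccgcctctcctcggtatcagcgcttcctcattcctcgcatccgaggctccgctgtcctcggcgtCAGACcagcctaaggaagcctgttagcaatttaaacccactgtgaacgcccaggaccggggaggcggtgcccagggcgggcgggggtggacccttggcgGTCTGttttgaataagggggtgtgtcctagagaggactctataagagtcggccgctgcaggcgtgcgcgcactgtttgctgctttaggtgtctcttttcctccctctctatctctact
Smad6: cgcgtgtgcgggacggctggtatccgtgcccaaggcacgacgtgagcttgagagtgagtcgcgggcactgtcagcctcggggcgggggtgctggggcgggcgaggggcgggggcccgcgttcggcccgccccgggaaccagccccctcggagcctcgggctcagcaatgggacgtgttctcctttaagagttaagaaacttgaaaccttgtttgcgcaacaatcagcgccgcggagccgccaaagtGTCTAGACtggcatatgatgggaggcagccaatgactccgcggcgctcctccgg
The Id3 window holds 2 copies of CAGAC, at bases 84 to 88 and, on the other strand, at bases 183 to 187, counted from 1 at the 5′ end. The Id2 window holds GGCGCC at bases 20 to 25. The Smad6 window holds GTCTAGAC at bases 247 to 254. Of 32851 mouse promoters of the same length, 49.6% hold CAGAC on either strand, 11.9% hold GGCGCC and 0.213% hold GTCTAGAC. These are matches of letters, and whether Smads bound there was not measured in the libraries.

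Smad1 and Smad5 relay BMP signals. Smad1 (ENSMUSG00000031681.18, chromosome 8 from 80065023 to 80126168) had 1.08 and 0.853 FPKM in NSN and 1.27 and 1.21 FPKM in SN libraries. Smad5 (ENSMUSG00000021540.18, chromosome 13 from 56850797 to 56890190) had 1.05 and 1.01 FPKM in NSN and 1.19 and 1.31 FPKM in SN libraries. For both genes the SN libraries were slightly above the NSN libraries. The log2 fold changes of 0.25 for Smad1 (95% interval from -0.16 to 0.67) and 0.19 for Smad5 (-0.20 to 0.58) did not pass the threshold (limma adjusted p = 0.35 and 0.45). They rest on 79 to 113 read pairs per library for Smad1 and 130 to 169 for Smad5. Smad9, the third BMP Smad, was listed at 0.107 and 0.218 FPKM in NSN and 0.295 and 0.238 FPKM in SN libraries, below the filter.

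Smad2 and Smad3 relay activin and TGF-beta signals, and also those of Gdf9 in its target cells. Smad3 (ENSMUSG00000032402.14, chromosome 9 from 63554049 to 63665476) had 10.5 and 11.7 FPKM in NSN and 14.7 and 13.3 FPKM in SN libraries. Both SN libraries were above both NSN libraries, but the change of 0.32 ± 0.11 (log2, standard error) missed the threshold (limma adjusted p = 0.11). Smad2 (ENSMUSG00000024563.18, chromosome 18 from 76374327 to 76445180) had 7.95 and 8.39 FPKM in NSN and 9.24 and 8.26 FPKM in SN libraries. Its groups overlapped, and the log2 fold change of 0.092 had a 95% interval from -0.18 to 0.37 (limma adjusted p = 0.62). After scaling each library to its median gene, the sign of Smad2 turned, to -0.054. Within a library, the ratio of Smad3 to Smad2 was 1.32 and 1.40 in NSN and 1.59 and 1.61 in SN libraries.

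Smad4 (ENSMUSG00000024515.15, chromosome 18 from 73769343 to 73836915), the partner shared by both branches, had 8.58 and 9.24 FPKM in NSN and 14.7 and 12.5 FPKM in SN libraries. Both SN libraries were above both NSN libraries, and the mean rose 1.53-fold, from 8.91 ± 0.470 to 13.6 ± 1.56 FPKM (SD, n = 2). This was 0.58 on the log2 scale, with a standard error of 0.12 (limma adjusted p = 0.045). Behind the 4 levels were 534, 592, 898 and 805 read pairs. The call was close to the threshold. It was lost after median scaling, where the log2 fold change was 0.43 (limma adjusted p = 0.078), and without NSN replicate 1 (0.53, limma adjusted p = 0.12), SN replicate 1 (0.47, limma adjusted p = 0.14) or SN replicate 2 (0.69, limma adjusted p = 0.098). On the deposited FPKM the median gene was itself shifted upward by 0.14 in SN oocytes, and after median scaling by 0.0050.

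**Figure D2:**
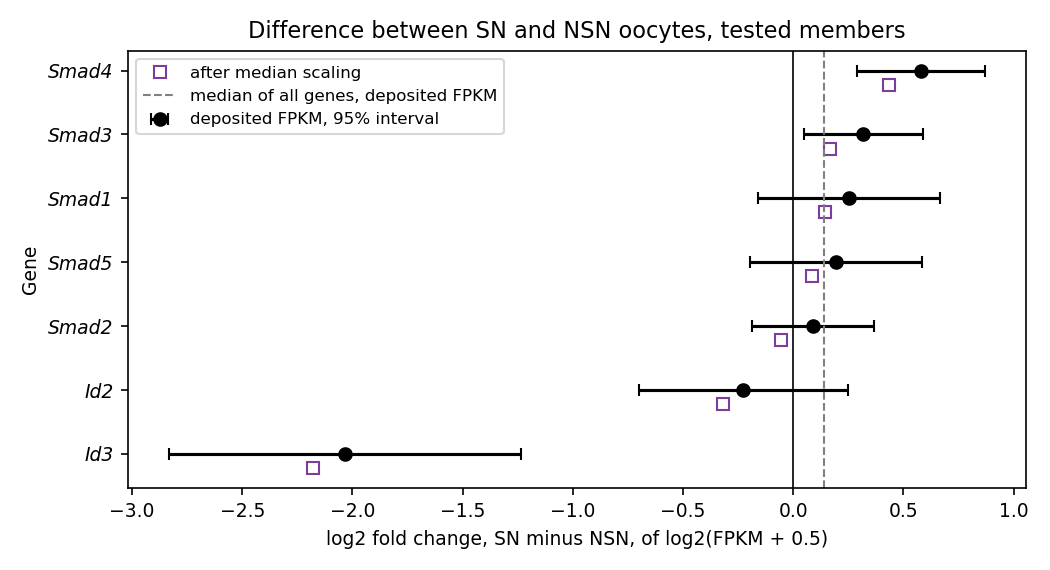
Log2 fold change from NSN to SN of log2(FPKM + 0.5) for the 7 tested genes (black points with 95% intervals from limma), the value after median scaling (open squares) and the median of all genes (dashed line). Id3 stands at -2.03, Smad4 at 0.58, and the intervals of Smad1, Smad2, Smad5 and Id2 include 0.

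The proportions among the Smads within a library do not depend on the scaling. Smad4 had 0.415 and 0.416 times the summed FPKM of the receptor-regulated Smads (Smad1, Smad2, Smad3, Smad5 and Smad9) in NSN libraries, and 0.552 and 0.515 times in SN libraries. Relative to Smad2 alone, Smad4 stood at 1.08 and 1.10 in NSN and 1.59 and 1.51 in SN libraries. Smad2 and Smad3 together had 8.26 and 9.66 times the summed FPKM of Smad1, Smad5 and Smad9 in NSN libraries, and 8.67 and 7.80 times in SN libraries. The groups overlapped in this last ratio and did not overlap in the others. The ratios with Smad4 are built from the Smad4 levels given above, so they are not a separate result. The ratio of Id3 to Smad4 was 2.25 and 1.71 in NSN libraries, and 0.405 and 0.198 in SN libraries. Id3 and Smad4 are the 2 called genes and changed in opposite directions, so their ratio restates these changes and adds no further result.

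**Figure D3:**
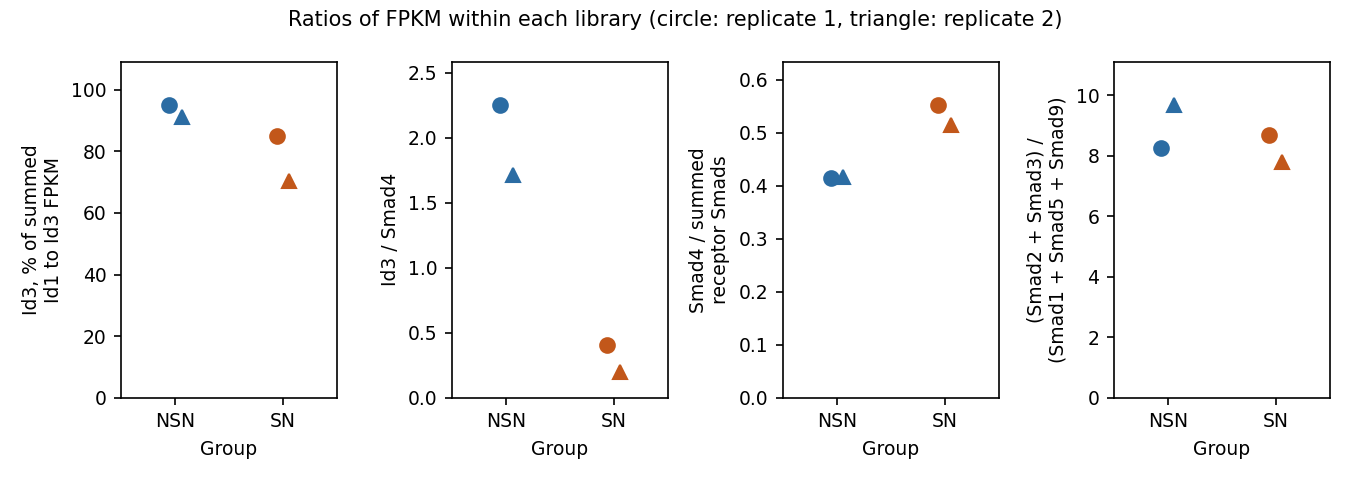
Ratios of FPKM within each of the 4 libraries (linear axes from 0, circles for replicate 1 and triangles for replicate 2). The share of Id3 among the Id transcripts and the ratio of Id3 to Smad4 are lower in both SN libraries, the ratio of Smad4 to the receptor-regulated Smads is higher in both, and the ratio of the activin and TGF-beta Smads to the BMP Smads overlaps between the groups.

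Smad6 (ENSMUSG00000036867.9, chromosome 9 from 63860341 to 63929793) competes with Smad4 for activated BMP Smads and marks BMP receptors for degradation. It had 1 and 3 read pairs in NSN and 3 and 2 in SN libraries, that is 0.0193 to 0.0592 FPKM. All 4 libraries were at or under the floor of 3 read pairs, so no fold change is given.

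In NSN oocytes the order of mean levels was Id3, Smad3, Smad4, Smad2, Smad5, Smad1, Id2, Id1 and Smad6. Neighbours in this order did not overlap in their ranges over the 2 libraries, except Smad5 with Smad1 and Smad1 with Id2. In SN oocytes the order was Smad3, Smad4, Smad2, Id3, Smad5, Smad1, Id2, Id1 and Smad6, so that Id3 moved from the first to the fourth place. There Smad3 overlapped with Smad4, Smad5 with Smad1, and Id2 with Id1. The place of Smad4 depended on the gene length. The length behind its FPKM was 0.493 times its annotated exonic length, against 0.564 to 0.929 times for the other 8 genes. Per kilobase of annotated exon, Smad4 came after Smad2 and Smad1 after Id2 in NSN oocytes, while in SN oocytes the order was the same and Smad4 overlapped with Smad2. By the mean of all 4 libraries, Smad2, Smad3 and Smad4 had higher levels than 74.6% to 79.6% of the listed genes, while Id1 and Id2 had higher levels than 27.6% and 37.5%.

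The genes around the Smads were taken from 8 lists by role, with 136 genes, of which 86 were listed and 66 tested. Of these 66, 6 were called higher and 2 lower in SN oocytes (background 5.95% higher and 1.98% lower), with a median log2 fold change of 0.16. After median scaling 3 were called higher and 2 lower, while over all genes the calls changed from 695 higher and 231 lower to 67 higher and 167 lower. Without NSN replicate 1, none of the 66 genes was called by limma (17 had an unadjusted p under 0.05), nor were any of all 11672 genes (2278 had one). Without SN replicate 1 there were 3 calls, and without SN replicate 2 there was 1, all lower in SN oocytes, so the calls of the higher genes below rest on each of these 3 libraries.

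Of the ligands, 13 of 31 were listed and 8 tested. Of the 8, 2 were called lower and none higher (1.98% and 5.95% of all genes tested). The log2 fold change was below 0 in 5 of them and above 0 in 3 (3890 and 7782 of all 11672 genes tested). Gdf9, the oocyte factor that drives cumulus expansion, had 5239 and 4929 FPKM in NSN and 2575 and 2289 FPKM in SN libraries (log2 fold change -1.07, limma adjusted p = 0.036). Bmp15, with which Gdf9 forms heterodimers, had 2062 and 1857 FPKM in NSN and 1338 and 1221 FPKM in SN libraries (log2 fold change -0.61, limma adjusted p = 0.036). Gdf9 and Bmp15 are also among the oocyte markers, and 10 of those 13 markers were called lower. Their calls were lost without NSN replicate 1 (limma adjusted p = 0.068 for Gdf9 and 0.095 for Bmp15), and that of Bmp15 also without SN replicate 2 (0.081).

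Of the receptors, 13 of 20 were listed and 12 tested. Of the 12, 1 was called higher and none lower (5.95% and 1.98% of all genes tested). The log2 fold change was above 0 in 7 of them and below 0 in 5 (7782 and 3890 of all 11672 genes tested). Bmpr2, the type II receptor for BMPs including Bmp15, had 4.84 and 6.36 FPKM in NSN and 11.3 and 11.5 FPKM in SN libraries. The log2 difference of 0.98 had a standard error of 0.15 (limma adjusted p = 0.036). It kept the call after median scaling (0.83, limma adjusted p = 0.048). Bmpr1b, a type I receptor and the most abundant receptor transcript here, had 13.1 and 15.9 FPKM in NSN and 20.1 and 19.9 FPKM in SN libraries, but its log2 fold change of 0.45 did not pass (limma adjusted p = 0.063). Among the extracellular antagonists, 6 of 14 were listed and 3 tested. Both SN libraries lay above both NSN libraries in 2 of the 6 and below in 3 (6409 and 2953 of all 16861 listed genes). The 3 lower genes did not reach the filter. They were Bmper (38 and 47 read pairs in NSN, 23 and 8 in SN), Chrdl1 (23 and 13 against 1 and 2) and Grem1 (2 and 7 against 0 and 2). Fstl1, a secreted follistatin-like protein that binds BMPs, rose from 0.697 and 0.619 FPKM in NSN to 1.47 and 1.77 FPKM in SN libraries (log2 difference 0.87, limma adjusted p = 0.043). It lost the call after median scaling (limma adjusted p = 0.064). Dand5, a secreted antagonist of Nodal and the most abundant of these, had 21.8 and 21.6 FPKM in NSN and 24.9 and 26.5 FPKM in SN libraries, and was not called (limma adjusted p = 0.13).

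Of the proteins that regulate receptors and Smads, 25 of 27 were listed and 23 tested. Of the 23, 3 were called higher and none lower (5.95% and 1.98% of all genes tested). The log2 fold change was above 0 in 15 of them and below 0 in 8 (7782 and 3890 of all 11672 genes tested). Usp9x, a deubiquitinase that removes ubiquitin from Smad4, had 15.2 and 20.5 FPKM in NSN and 33.1 and 33.2 FPKM in SN libraries (log2 fold change 0.89, limma adjusted p = 0.036). Rnf111, a ubiquitin ligase also called Arkadia that targets Smad7 and the corepressors Ski and Skil, had 4.35 and 4.69 FPKM in NSN and 8.06 and 7.97 FPKM in SN libraries (0.76, limma adjusted p = 0.036). Zfyve9, also called SARA, an endosomal anchor that presents Smad2 and Smad3 to receptors, had 2.14 and 2.53 FPKM in NSN and 5.01 and 4.35 FPKM in SN libraries (0.87, limma adjusted p = 0.038). In all 3 genes both SN libraries were above both NSN libraries. After median scaling Usp9x and Rnf111 kept the call (limma adjusted p = 0.049 and 0.050, both below the threshold before rounding) and Zfyve9 did not (0.055). Fkbp1a, which holds type I receptors inactive, was the most abundant gene of the list with 80.0 and 73.5 FPKM in NSN and 67.7 and 67.9 FPKM in SN libraries, and was not called (limma adjusted p = 0.19).

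None of the 11 tested transcriptional partners of the Smads was called. Of the 11, 4 had an unadjusted p under 0.05 (3695 of all 11672 genes tested). Sin3a, a corepressor scaffold and the most abundant of them by the mean of all 4 libraries (though not in NSN oocytes alone, where Ski was higher), had 27.3 and 33.0 FPKM in NSN and 42.2 and 40.8 FPKM in SN libraries (limma adjusted p = 0.054). Of the transcription factors that Id proteins bind, bHLH proteins and ETS factors, 9 of 11 were listed and 7 tested. Elk4, an ETS factor, had 2.64 and 3.34 FPKM in NSN and 5.40 and 5.12 FPKM in SN libraries (log2 fold change 0.73, limma adjusted p = 0.044), but 47.4% of its exonic bases lie in other annotated genes and the call was lost after median scaling (0.066). Figla, the germ-cell bHLH factor that activates zona pellucida genes, had 19.5 and 21.4 FPKM in NSN and 18.4 and 18.3 FPKM in SN libraries (limma adjusted p = 0.33). Of 15 other target genes of BMP and TGF-beta signalling, 5 were listed and 2 tested, and neither was called. Gata3, the most abundant of them, had 9.61 and 11.3 FPKM in NSN and 9.93 and 12.1 FPKM in SN libraries, groups that overlapped (limma adjusted p = 0.74). Hey1, the other tested gene, had 3.48 and 3.39 FPKM in NSN and 2.59 and 2.57 FPKM in SN libraries. Its SN libraries lay below its NSN libraries, with a log2 fold change of -0.35 (limma unadjusted p = 0.034, adjusted p = 0.13).

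**Figure D4:**
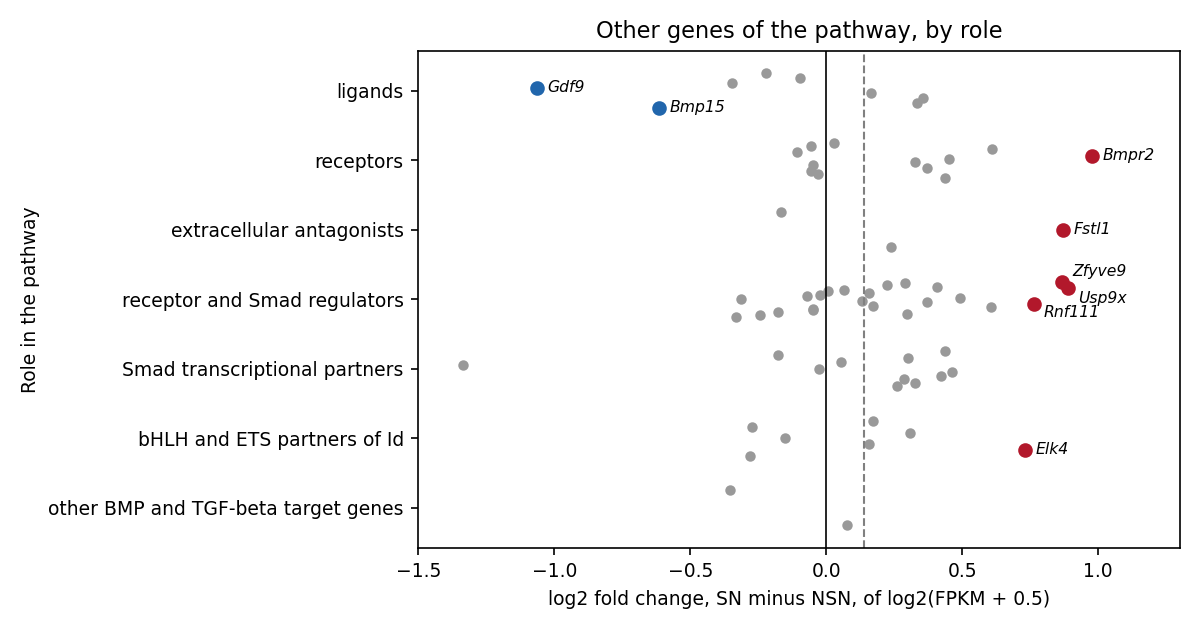
Log2 fold change from NSN to SN of log2(FPKM + 0.5) for the 66 tested genes of the pathway lists, by role, with the 6 genes called higher in red, the 2 called lower in blue, the others in grey, and the median of all genes as a dashed line. Gdf9 and Bmp15 are the genes called lower, and the genes called higher lie between 0.73 and 0.98.

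Id genes are also active in granulosa cells, so the markers of these cells stand beside the fall of Id3. Of the 18 markers, 5 were tested and none was called by limma, with 1 at an unadjusted p under 0.05 (3695 of all 11672 genes tested). By the mean of all 4 libraries, the most abundant were Esr2 (25.0 and 26.6 FPKM in NSN, 30.5 and 29.6 FPKM in SN libraries), Cyp19a1 (5.81 and 8.06 against 8.38 and 8.22 FPKM) and Kitl (1.32 and 1.73 against 1.72 and 1.83 FPKM). The 7 markers Foxl2, Amh, Amhr2, Nr5a1, Wnt4, Tnfaip6 and Ptx3 are not among the listed genes. Fshr was listed, with 17 and 7 read pairs in NSN and 35 and 15 in SN libraries, below the filter. Of the 5 tested markers, 4 had a log2 fold change above 0 (7782 of all 11672 genes tested). The other was Inha, at -0.35 (10 and 38 read pairs in NSN, 11 and 17 in SN libraries). The summed level of the markers was higher in both SN libraries, where Id3 was lower, but most of it was Esr2, and 6 of the 11 listed markers had a mean under 0.5 FPKM. The median log2 fold change of the 5 tested markers was 0.22, and 0.063 after median scaling. The part of granulosa cells in the level of Id3 was not tested.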

How the data were processed

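RNA-seq libraries of NSN and SN oocytes (2 each) were analysed. Per the labels and methods, the authors trimmed reads with Trim Galore 0.6.10, aligned with HISAT2 to the GRCm39 build, assigned read pairs to GENCODE exons by featureCounts without strand, tested counts with DESeq2, and deposited FPKM made with their own script. The counts themselves were not used here. Library totals were recovered from 5 mitochondrial tRNA genes, and then whole read pairs (within 1e-06) for 16833 genes (99.8%) with lengths up to 30000 bp. Positions and exonic lengths came from a later GENCODE release on the same build, in which 97.8% of symbols occur once. The 2 groups were compared by limma 3.58.1 (R 4.3.3) on log2(FPKM + 0.5) with a variance trend, and other values were computed with Python 3.11.15. The fit was also run on simulated read pairs that gave all genes the same extra spread between replicates. This need not hold in these libraries, so that run does not bear on the calls. The named genes are the 10 members, the pathway genes past both thresholds, the most abundant gene of each role, Gdf9 and Bmp15, the 3 most abundant granulosa cell markers and the 5 genes closest to Id3. Other genes, such as Tgif1, Hey1, Bmper and Inha, were named after their values were seen. The members, lists and thresholds were chosen with earlier results of these data known. Alternatives were 2 pseudocounts, 2 filters, 2 scalings, no trend, a replicate block, limma's voom on the read pairs, an adjusted p under 0.1, each library left out, and another gene length.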

Additional observations from a re-analysis of the deposited data

How the results depend on the processing

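Of the 10 genes, 2 were called by limma with the settings used. This was 1 (Id3) after median scaling, after quantile normalization and with the replicate block, and 0 when all listed genes entered or no variance trend was used (in both, 3 had an unadjusted p under 0.05). Leaving out 1 library at a time gave 0 to 2. The adjusted p of Id3 was 0.054 with all listed genes and 0.092 without the trend, and ranged from 0.00044 to 0.092 over all alternatives. Voom on the read pairs with library totals also called Smad3 (limma adjusted p = 0.049). With median scaling voom did not call Smad3 (log2 fold change 0.17, limma adjusted p = 0.28).

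Of the pathway lists, 8 genes were called. This was 5 after median scaling, 4 after quantile normalization, 0 with all listed genes and without the trend (23 at an unadjusted p under 0.05 in both), 17 and 15 with voom on library totals and with median scaling, and 16 at an adjusted p under 0.1. Leaving out 1 library at a time gave 0 to 10. Of all genes, 926 were called. This was 1496 among genes whose mean FPKM reached 5, 234 with median scaling, 230 with quantile normalization, 0 with all listed genes and without the trend (4092 and 3449 at an unadjusted p under 0.05), 422 with the replicate block, 2313 and 1712 with voom on library totals and with median scaling, and 2370 at an adjusted p under 0.1. Leaving out 1 library at a time gave 0 to 1685. The cause of these moves was not tested.

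The log2 fold change of Smad2 turned to -0.054 after median scaling, -0.090 after quantile normalization and -0.058 with voom and median scaling, and that of Gata3 to -0.072, -0.10 and -0.076. Leaving out 1 library at a time, that of Gata3 lay between -0.064 and 0.21. None of these was called. For the members, across the settings that used all 4 libraries, 63 values stayed as they were in direction and call, 7 lost the call, 1 gained it and 3 turned in sign. The correlation across genes of the replicate differences of NSN and SN was -0.070, and no label links a number to a day or litter, so the replicate block, which also took the call of Smad4 (limma adjusted p = 0.065), pairs libraries that share only a number. With read pairs per kilobase of exon, 6 of the 9 genes kept their place in the order by the mean of all 4 libraries (Smad3, Smad4, Id3, Smad2, Smad5, Smad1, Id2, Id1 and Smad6). Id1 and Smad6 rest on few read pairs and were below the filter, so their differences were not tested.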

Other observations

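The genes whose pattern over the 4 libraries was closest to that of Id3 were found by the Euclidean distance of their log2(FPKM + 0.5) values, each centred on its own mean, among 9807 genes whose mean FPKM reached 1. They were Spcs3 (distance 0.33), Sdcbp2 (0.53), Zfp707 (0.60), Ldhc (0.62) and Gm43622 (0.62). Spcs3, a subunit of the signal peptidase complex, had 5.72 and 4.32 FPKM in NSN and 2.01 and 0.609 FPKM in SN libraries. Sdcbp2, a syntenin family gene, had 22.4 and 25.3 FPKM in NSN and 8.79 and 5.24 FPKM in SN libraries. Zfp707, a zinc finger gene, had 8.68 and 3.97 FPKM in NSN and 2.25 and 0.800 FPKM in SN libraries. Ldhc, the lactate dehydrogenase of germ cells, had 41.4 and 28.9 FPKM in NSN and 17.6 and 8.64 FPKM in SN libraries. Gm43622 had 6.66 and 4.42 FPKM in NSN and 2.87 and 0.881 FPKM in SN libraries. NSN replicate 2 was the highest library for Sdcbp2, unlike for Id3. The genes were picked for their likeness to Id3 over only 4 libraries, so the likeness is a description.

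Tgif1, a corepressor of Smad2 and Smad3 that was singled out after its values were seen, had 4.73 and 2.76 FPKM in NSN and 1.78 and 0.675 FPKM in SN libraries. Both SN libraries were below both NSN libraries. The log2 difference of -1.34 had a standard error of 0.35 and was not called (limma adjusted p = 0.064), while voom on the read pairs called it (limma adjusted p = 0.014). The 4 levels rest on only 95, 57, 35 and 14 read pairs. The length behind the FPKM of Tgif1 was 0.197 times its annotated exonic length.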
